A study of Homo sapiens with 12 samples.

Results

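The genes described here encode the immunoproteasome and the machinery that loads its peptide products onto class I molecules: the inducible catalytic subunits PSMB8, PSMB9 and PSMB10, the activator subunits PSME1 and PSME2, the peptide transporter TAP1 and TAP2, its bridging chaperone TAPBP, the class I light chain B2M and the transactivator NLRC5. They were picked by name and not by a cut-off on measured values, but with earlier results of these data known. Of these 10 genes, 9 were measured among 19775 genes in all, by 16 of 54613 probe sets. PSME2 is not reported, because its only probe set also names another gene.

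The proteasome is a barrel of protein subunits that degrades ubiquitin-tagged proteins, and its cutting sites lie on the β1, β2 and β5 subunits, encoded by PSMB6, PSMB7 and PSMB5. Interferon-γ induces replacement subunits for newly built particles: β1i from PSMB9, β2i from PSMB10 and β5i from PSMB8. Carfilzomib binds β5 and β5i, and lymphoid cells, plasma cells among them, carry much of their proteasome in the inducible form. The peptides released are pumped by TAP1 and TAP2 into the endoplasmic reticulum, where TAPBP (tapasin) holds the transporter next to a class I heavy chain paired with B2M, and NLRC5 switches on several genes of this route.

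RNA from 4 groups of human multiple myeloma cells was hybridised to Affymetrix human genome arrays, with 3 arrays for each group. The resistant cultures, KMS-11/Cfz and KMS-34/Cfz, were adapted stepwise to carfilzomib and grew in 12 nM of the drug. They had spent 1 week without drug when RNA was taken. KMS-11 and KMS-34 are the parental lines, never selected. Each resistant derivative is 1 selected culture of its line, and nothing in the sources says that the replicates were separate cultures, so p-values measure the spread between these arrays, which may be technical. The deposited log2 values were centred for each probe set: a value is a difference from the other arrays, not an expression level, and neither presence nor the labelled cell type can be read from it. Pairs of arrays within a group correlated at r = 0.76 to 0.95 over all genes (12 pairs), and replicate 1 of KMS-34/Cfz stood apart, with a mean r of 0.78 to the other arrays of its group. That array was the lowest of its group in 9 of 9 genes, and replicate 1 of KMS-34 was the lowest of its group in 8 of 9, so changes in KMS-34/Cfz are also given without them where that moved a call or a sign. Markers of T and NK cells, monocytes, stroma and erythroid cells averaged between -0.23 and 0.16 on every array, while plasma cell markers averaged 0.05 to 0.20 in KMS-34/Cfz and 0.27 to 0.38 in KMS-34, against -0.61 to -0.58 in KMS-11/Cfz and -0.45 to -0.40 in KMS-11. Of the 8 plasma cell markers, 6 were higher in KMS-34 than in KMS-11 cells, where 21.6% of all genes were. Between the derivatives 6 were higher in KMS-34/Cfz (22.5% of all genes) and 1, TNFRSF17, was lower. CD38 had means of -1.81 in KMS-11/Cfz and -2.25 in KMS-11, against 0.23 in KMS-34/Cfz and -0.11 in KMS-34. The part of all these markers in the results was not tested.

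Of the 9 genes, 8 have a promoter window in RefSeq (GRCh38.p14), which spans 250 bases before to 50 after a transcript start; NLRC5 has none in the table used. The core of the interferon-stimulated response element, GAAA and a second GAAA with any 2 bases between them, was searched on both strands. It occurs in a window of 7 of the 8 genes, and in 3.57% of all 35116 windows. PSMB9 is the exception. The matching stretches are shown because this motif is what the promoters of the group share most widely, each read in the direction of its gene, with the matching bases in capitals and overlapping matches shown as 1 run.
PSMB8 (chr6:32844032-32844061, minus strand): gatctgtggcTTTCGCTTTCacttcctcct
PSMB10 (chr16:67936852-67936881, minus strand): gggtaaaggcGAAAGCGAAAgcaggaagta
PSME1 (chr14:24136189-24136218, plus strand): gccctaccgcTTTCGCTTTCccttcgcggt
TAP1 (chr6:32853816-32853845, minus strand): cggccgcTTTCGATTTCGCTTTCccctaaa
TAP2 (chr6:32838778-32838807, minus strand): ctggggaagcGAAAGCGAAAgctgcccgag
TAPBP (chr6:33314076-33314105, minus strand): tttggagGAAAGTGAAAGTGAAAggaggaa
B2M (chr15:44711366-44711395, plus strand): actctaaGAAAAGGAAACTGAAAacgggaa
PSMB10 and TAP2 carry the same 10 matching bases, GAAAGCGAAA, and PSMB8, PSME1 and the second match of TAP1 carry their complement. In TAP1, TAPBP and B2M 2 overlapping matches make up the run. A match is a description of these letters and not evidence that a factor binds there.

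TAP1 and PSMB9 lie back to back on chromosome 6 and are transcribed away from each other, from starts whose upstream windows overlap at their far ends. Both windows are shown for that reason, up to the base before the start, with matches to the interferon element, to CCAAT and to the NF-κB site (GGGAC directly followed by TTTCC) in capitals.
TAP1 (chr6:32853705-32853954, minus strand): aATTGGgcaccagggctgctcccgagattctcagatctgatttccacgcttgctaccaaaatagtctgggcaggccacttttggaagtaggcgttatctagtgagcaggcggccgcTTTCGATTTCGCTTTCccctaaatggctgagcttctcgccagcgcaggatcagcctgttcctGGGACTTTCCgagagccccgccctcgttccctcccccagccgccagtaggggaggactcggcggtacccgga
PSMB9 (chr6:32853942-32854191, plus strand): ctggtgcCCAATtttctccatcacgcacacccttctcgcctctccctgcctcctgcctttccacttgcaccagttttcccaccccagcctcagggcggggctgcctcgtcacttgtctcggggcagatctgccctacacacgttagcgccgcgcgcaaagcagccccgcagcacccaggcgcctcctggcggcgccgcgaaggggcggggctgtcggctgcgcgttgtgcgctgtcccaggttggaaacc
The NF-κB letters occur in 0.191% of all windows and in those of 2 of the 8 genes, TAP1 and B2M. CCAAT, bound by the NF-Y factor, occurs in 34.6% of windows and in those of 3 genes, TAP1, PSMB9 and B2M. The windows of TAP1 and PSMB9 overlap there, and their CCAAT match is 1 stretch of bases read from either strand. A match to the STAT site TTCNNNGAA, found in 7.66% of windows, occurs at PSMB8 and TAP1, and the CREB site TGACGTCA, found in 1.85%, occurs at none of the 8. The GC box GGGCGG, present in 45.0% of windows, occurs at 6 of the 8 genes.

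In KMS-34/Cfz cells PSMB8 (1.21-fold) and PSMB10 (1.31-fold) rose and the other 7 genes did not pass the test, whereas in KMS-11/Cfz cells none of the 9 passed and 8 of 9 estimates were below 0 (with cyclic loess scaling that of PSMB9 was above it). In the direct test of the difference between the lines PSMB8 alone passed. The largest differences lay between the lines themselves, in PSMB9, PSMB8 and NLRC5. All but B2M, 8 of 9 genes, were higher in KMS-34 than in KMS-11 cells, where 21.6% of all genes were. These differences ran from 1.17-fold for TAP1 to 2.17-fold for PSMB9. In PSMB10 the log2 difference (0.32) was smaller than the change in KMS-34/Cfz (0.39). In TAP1 it (0.23) was about as large as the change in KMS-11/Cfz (-0.23). The plot of values by array shows all 9 genes.

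**Figure D1:**
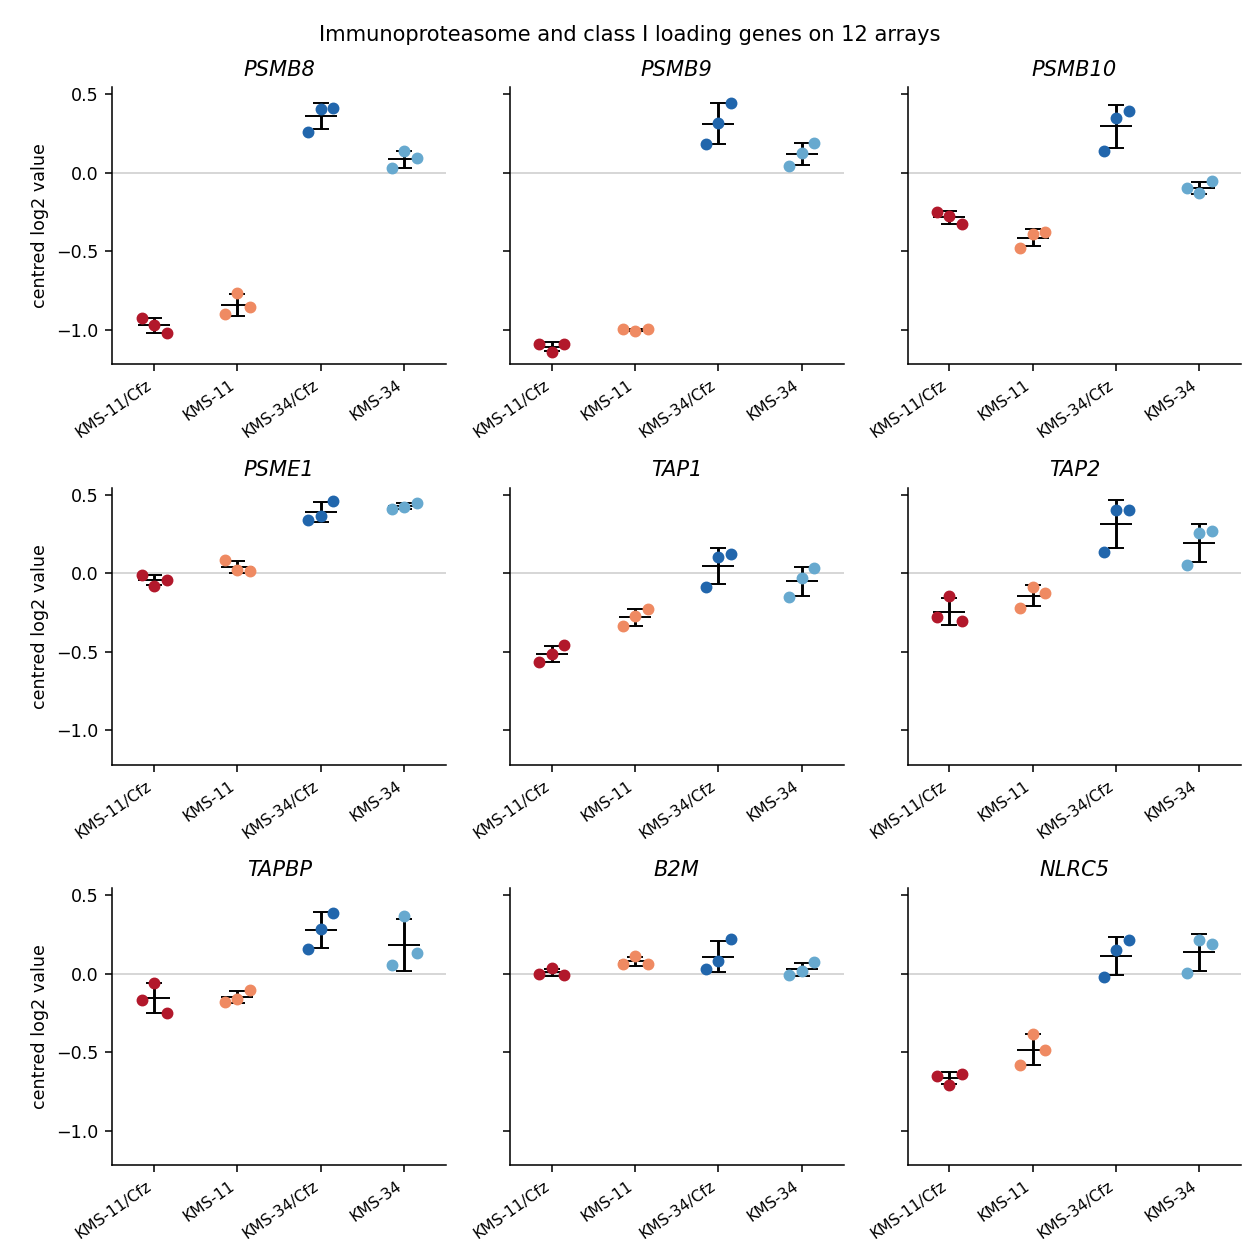
Centred log2 value (vertical axis, same scale in all panels) of the 9 genes on each of 12 arrays, in the groups KMS-11/Cfz, KMS-11, KMS-34/Cfz and KMS-34 from left to right; points are arrays in the order of their replicate number, horizontal lines the group means and error bars the SD (n = 3). Apart from B2M, the arrays of the KMS-34 pair lie above those of the KMS-11 pair in every panel.

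PSMB8, the β5i subunit (chr6:32840717-32844679), had centred log2 values of 0.26, 0.41 and 0.41 in KMS-34/Cfz cells, against 0.03, 0.14 and 0.10 in KMS-34 cells. The groups did not overlap, and PSMB8 rose by 0.27 on the log2 scale (standard error, SE, 0.07, 1.21-fold; adjusted p = 0.016, limma with Benjamini-Hochberg adjustment over all genes). In KMS-11/Cfz cells the values were -0.93, -0.97 and -1.02, against -0.90, -0.77 and -0.86 in KMS-11 cells. Here the resistant arrays all lay below the parental ones, but the change of -0.13 (SE 0.07) did not pass the test (adjusted p = 0.43). The rise in KMS-34/Cfz was 0.32 without replicate 1 of that group (adjusted p = 0.0054). It lost its call when replicate 2 or 3 of KMS-34/Cfz or replicate 1 of KMS-34 was left out, or when the line was fitted alone (adjusted p = 0.052 to 0.12).

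PSMB10, the β2i subunit (chr16:67934506-67936850), is the only one of the catalytic genes outside chromosome 6. Its values were 0.14, 0.35 and 0.40 in KMS-34/Cfz cells, against -0.10, -0.13 and -0.05 in KMS-34 cells. It rose there by 0.39 (SE 0.07, 1.31-fold; adjusted p = 0.0030), and kept this call under all 20 alternatives tried (0.34 to 0.47, adjusted p at most 0.045). In KMS-11/Cfz cells the values were -0.25, -0.27 and -0.33, against -0.48, -0.39 and -0.37 in KMS-11 cells. The resistant arrays lay above the parental ones there too, with a change of 0.13 (SE 0.07; adjusted p = 0.49). Averaged over both lines, PSMB10 was the only one of the 9 genes to pass, at 0.26 (SE 0.05; adjusted p = 0.0056), where 3.99% of all genes rose.

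PSMB9, the β1i subunit (chr6:32854192-32859851), measured 0.18, 0.32 and 0.45 in KMS-34/Cfz cells, against 0.05, 0.13 and 0.19 in KMS-34 cells. These ranges overlap through replicate 1 of KMS-34/Cfz, and the difference of 0.19 (SE 0.07) did not pass (adjusted p = 0.11). Without that array it was 0.26 and passed (adjusted p = 0.018). In the other line the values were -1.09, -1.14 and -1.09 in KMS-11/Cfz cells, against -0.997, -1.01 and -0.996 in KMS-11 cells. The arrays did not overlap there, yet the change of -0.11 (adjusted p = 0.61) turned to 0.12 with cyclic loess scaling, so its direction is not settled.

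PSME1 encodes the α subunit of PA28, a ring that caps the barrel and opens it for peptide output (chr14:24136194-24138962). Its values were 0.34, 0.37 and 0.46 in KMS-34/Cfz cells, against 0.41, 0.43 and 0.45 in KMS-34 cells. In KMS-11/Cfz cells they were -0.01, -0.08 and -0.04, against 0.08, 0.02 and 0.01 in KMS-11 cells. Neither change passed, at -0.04 ± 0.06 (SE) in KMS-34/Cfz and -0.08 ± 0.06 in KMS-11/Cfz (adjusted p = 0.81 and 0.65).

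TAP1 (chr6:32845209-32853704), which forms the peptide pump together with TAP2, gave the lowest estimate of the 9 genes in KMS-11/Cfz cells. It measured -0.56, -0.52 and -0.46 there, against -0.34, -0.27 and -0.23 in KMS-11 cells. All 3 resistant arrays lay below all parental ones, and the change of -0.23 (SE 0.07, fold 0.850) had an adjusted p of 0.12. Its call depended on arrays of the other line, which enter through the shared estimate of spread: without replicate 1 of KMS-34/Cfz the same -0.23 passed (adjusted p = 0.044), and it also passed with the KMS-11 arrays fitted alone (adjusted p = 0.035). In KMS-34/Cfz cells TAP1 measured -0.09, 0.10 and 0.12, against -0.15, -0.03 and 0.03 in KMS-34 cells. These groups overlapped, with a change of 0.10 (SE 0.07; adjusted p = 0.53).

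TAP2, TAPBP and B2M passed in neither line. TAP2 (chr6:32821831-32838739) had an estimate of 0.12 ± 0.09 (SE) in KMS-34/Cfz cells and -0.10 ± 0.09 in KMS-11/Cfz cells (adjusted p = 0.50 and 0.76). For TAPBP (chr6:33299694-33314078) it was 0.09 ± 0.09 in KMS-34/Cfz cells and -0.01 ± 0.09 in KMS-11/Cfz cells (adjusted p = 0.64 and 0.99). In both genes resistant and parental arrays overlapped in each line. B2M (chr15:44711517-44718145) spanned only -0.01 to 0.22 over the 12 arrays. Its estimate was 0.08 ± 0.06 in KMS-34/Cfz cells and -0.07 ± 0.06 in KMS-11/Cfz cells (adjusted p = 0.53 and 0.77).

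NLRC5 (chr16:56989557-57083520), the transactivator of class I genes, measured -0.65, -0.71 and -0.64 in KMS-11/Cfz cells, against -0.58, -0.39 and -0.49 in KMS-11 cells. The resistant arrays were all lower, with a change of -0.18 (SE 0.08; adjusted p = 0.34). In KMS-34/Cfz cells it measured -0.02, 0.15 and 0.21, against 0.003, 0.22 and 0.19 in KMS-34 cells. The groups overlapped, and the change of -0.02 (SE 0.08; adjusted p = 0.94) was 0.05 without replicate 1 of KMS-34/Cfz.

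These counts stand beside the shares of all genes. In KMS-34/Cfz 2 of 9 genes rose and 0 fell, where 10.1% of all genes passed in either direction and 5.40% rose. The median change of the 9 was 0.10, against -0.01 over all genes. In KMS-11/Cfz 0 of 9 passed in limma, where 3.57% of all genes did, although 2 of 9, TAP1 and NLRC5, had an unadjusted p under 0.05. The median change was -0.10, against 0.002 over all genes. Arrays of KMS-11/Cfz lay wholly below those of KMS-11 in 6 of 9 genes (13.7% of all genes) and wholly above in 1 of 9, PSMB10 (13.1% of all genes). Arrays of KMS-34/Cfz lay wholly above those of KMS-34 in 2 of 9 (10.2% of all genes) and wholly below in 0 (10.5%). With replicate 1 of both KMS-34/Cfz and KMS-34 left out, 3 of 9 genes passed in KMS-34/Cfz and 1 of 9 in KMS-11/Cfz. The share of all genes passing in that fit is not given here. The shares above come from the fit of all arrays, so the counts without these replicates cannot be set beside them.

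**Figure D2:**
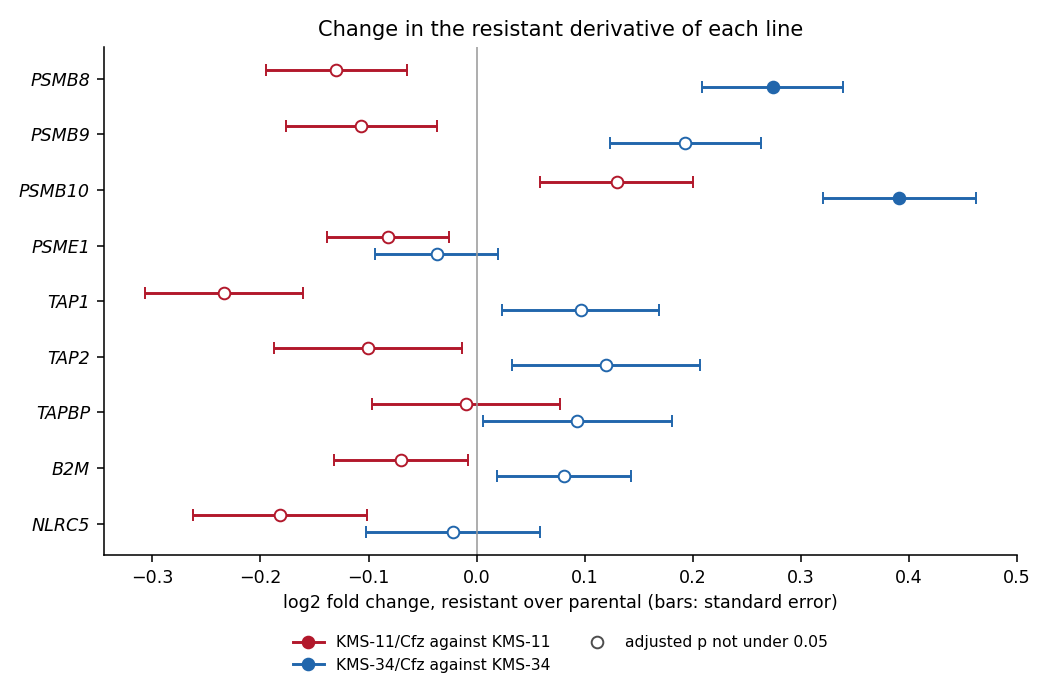
Log2 fold change of resistant over parental cells (horizontal axis) for the 9 genes in each line, with KMS-11/Cfz against KMS-11 in red and KMS-34/Cfz against KMS-34 in blue; bars are standard errors from limma and filled points passed the test. Only PSMB8 (0.27) and PSMB10 (0.39) in KMS-34/Cfz are filled, and every blue point lies to the right of its red point, although with cyclic loess scaling (not drawn) that of PSME1 does not.

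The contrast between the lines was then tested directly, as the change in KMS-34/Cfz minus the change in KMS-11/Cfz. This difference was above 0 in 9 of 9 genes, from 0.05 in PSME1 to 0.40 in PSMB8, with a median of 0.22 against -0.02 over all genes, except that PSME1 turned to -0.03 with cyclic loess scaling and TAPBP to -0.26 when its probe set of largest variance stood for the gene. PSMB8 alone passed (0.40, SE 0.09; adjusted p = 0.019), so 1 of 9 was higher in this contrast, as were 3.70% of all genes. That call was lost without replicate 3 of KMS-11/Cfz, replicate 2 of KMS-34/Cfz or replicate 2 of KMS-11 (adjusted p = 0.055 to 0.062). The same values of its only probe set, fitted and adjusted over all probe sets, also missed the threshold (adjusted p = 0.053). Without replicate 1 of KMS-34/Cfz 4 of 9 passed, and the share of all genes passing in that fit is not given here. TAP1 followed PSMB8 at 0.33 (adjusted p = 0.081), PSMB9 at 0.30 (adjusted p = 0.099) and PSMB10 at 0.26 (adjusted p = 0.16).

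Between the parental lines the differences were larger for PSMB9, PSMB8 and NLRC5. PSMB9 was higher in KMS-34 than in KMS-11 cells by 1.12 on the log2 scale (SE 0.07; adjusted p = 1.1e-08), PSMB8 by 0.93 (SE 0.07; adjusted p = 3.6e-08) and NLRC5 by 0.62 (SE 0.08; adjusted p = 1.8e-05). PSME1 followed at 0.39, TAP2 at 0.34, TAPBP at 0.33, PSMB10 at 0.32 and TAP1 at 0.23 (adjusted p at most 0.020). B2M differed by -0.05 (SE 0.06; adjusted p = 0.60). Thus 8 of 9 genes were higher, where 21.6% of all genes were, and in these 8 the KMS-34 arrays lay wholly above the KMS-11 arrays, as in 26.1% of all genes. The call for TAP1 was lost without replicate 1 of KMS-11 or replicate 2 or 3 of KMS-34 (adjusted p = 0.053 to 0.085).

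The resistant derivatives kept the order of their parents. The same 8 genes were higher in KMS-34/Cfz than in KMS-11/Cfz cells, where 22.5% of all genes were, and their arrays did not overlap (25.6% of all genes lay wholly above). PSMB9 differed by 1.42 (2.68-fold), PSMB8 by 1.33 (2.52-fold) and NLRC5 by 0.78 (1.72-fold). PSMB10, TAP1 and TAP2 differed by 0.58, 0.56 and 0.56. PSME1 and TAPBP both differed by 0.43. B2M, at 0.10, did not pass (adjusted p = 0.23).

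**Figure D3:**
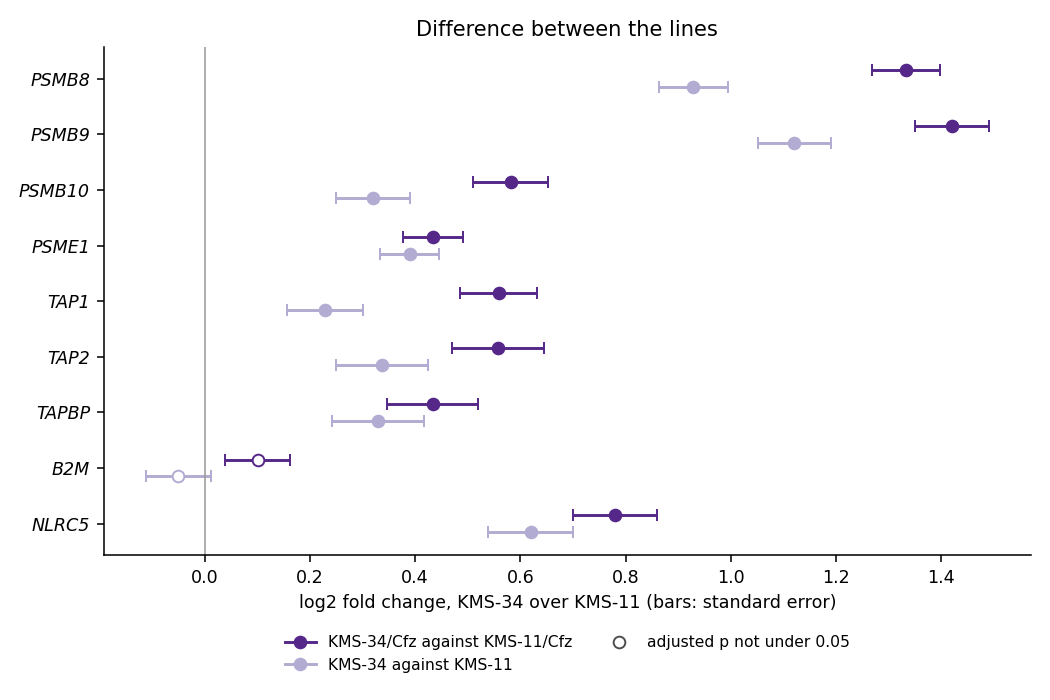
Log2 fold change of KMS-34 over KMS-11 cells (horizontal axis) for the 9 genes, between the resistant derivatives in dark purple and between the parental lines in light purple; bars are standard errors from limma and filled points passed the test. All genes but B2M are filled and positive in both, with PSMB9 (1.42 and 1.12) and PSMB8 (1.33 and 0.93) farthest from 0.

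Ranked by mean, PSMB8, PSMB9, TAP1, TAP2 and TAPBP shared 1 order: KMS-34/Cfz, KMS-34, KMS-11, KMS-11/Cfz from highest to lowest. Within it the step from KMS-34 to KMS-11 passed the test in each of these genes. The neighbours KMS-34/Cfz and KMS-34 differed in PSMB8 alone, and the neighbours KMS-11 and KMS-11/Cfz in none. PSMB10 ran KMS-34/Cfz, KMS-34, KMS-11/Cfz, KMS-11, with its first and second steps past the threshold (0.39 and 0.19; adjusted p = 0.0030 and 0.043). PSME1 and NLRC5 were highest in KMS-34, whose step to KMS-34/Cfz did not pass. No neighbouring groups differed in B2M.

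Each inducible subunit displaces a constitutive one, so the log2 difference between the members of a pair was formed on each array. In centred values it ranks arrays and gives no true ratio. All 3 constitutive catalytic genes rose in KMS-11/Cfz cells: PSMB6 by 0.37 (adjusted p = 0.0040), PSMB7 by 0.33 (adjusted p = 0.046) and PSMB5 by 0.31 (adjusted p = 0.039). Of all genes 3.57% passed there. The other 3 genes of their list, for assembly and other activators (POMP, PSME3 and PSME4), did not. PSMB5, PSMB6 and PSMB7 did not pass in KMS-34/Cfz cells, where 10.1% of all genes did. There PSMB5 changed by 0.17, PSMB6 by -0.04 and PSMB7 by -0.03. The change of PSMB6 differed between the lines (-0.41; adjusted p = 0.013), and those of PSMB5 (-0.14; adjusted p = 0.57) and PSMB7 (-0.35; adjusted p = 0.10) did not pass that test.

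PSMB8 minus PSMB5 was 0.43, 0.50 and 0.36 in KMS-34/Cfz cells, against 0.36, 0.35 and 0.28 in KMS-34 cells, and -1.01, -0.96 and -1.03 in KMS-11/Cfz cells, against -0.69, -0.53 and -0.46 in KMS-11 cells. PSMB9 minus PSMB6 was 0.71, 0.82 and 0.79 in KMS-34/Cfz cells, against 0.50, 0.52 and 0.60 in KMS-34 cells, and -1.31, -1.31 and -1.25 in KMS-11/Cfz cells, against -0.80, -0.78 and -0.84 in KMS-11 cells. PSMB10 minus PSMB7 was 0.36, 0.36 and 0.28 in KMS-34/Cfz cells, against 0.01, -0.18 and -0.08 in KMS-34 cells, and -0.80, -0.88 and -0.82 in KMS-11/Cfz cells, against -0.71, -0.67 and -0.53 in KMS-11 cells. In all 3 pairs the resistant arrays were wholly above the parental ones in the KMS-34 line and wholly below them in the KMS-11 line. The balance thus moved by 0.10, 0.23 and 0.42 in KMS-34/Cfz for PSMB8/PSMB5, PSMB9/PSMB6 and PSMB10/PSMB7, and by -0.44, -0.48 and -0.20 in KMS-11/Cfz. With 3 arrays against 3, the exact permutation test within a line cannot go below p = 0.1, the value that each of these 6 comparisons gave. The 3 pairs were read from the same arrays. How often other pairs of genes separate wholly in opposite directions in the lines was not counted.

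Averaged over both lines these shifts did not pass (exact permutation over 400 arrangements, two-sided; p = 0.12, 0.32 and 0.36 in the order above, and 0.34, 0.36 and 0.36 adjusted over the 3 pairs). Their difference between the lines, a test chosen after the values had been seen, was 0.54 for PSMB8/PSMB5, 0.71 for PSMB9/PSMB6 and 0.62 for PSMB10/PSMB7. Each had an exact permutation p of 0.005, the smallest that 400 arrangements can give, and 0.005 after adjustment over 3 pairs. Groups wholly separated in opposite directions in the lines must give this p, so it adds nothing to that separation. Without replicate 1 of KMS-34/Cfz the differences were 0.54, 0.74 and 0.60, and without replicate 1 of KMS-34 0.56, 0.69 and 0.66 (exact permutation p at most 0.01). Wholly separated groups stay so when an array is left out, so these p-values add nothing either. Replicate 1 of KMS-34/Cfz, the lowest array of its group in the single genes, was not the lowest in the PSMB8 or the PSMB10 pair.

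**Figure D4:**
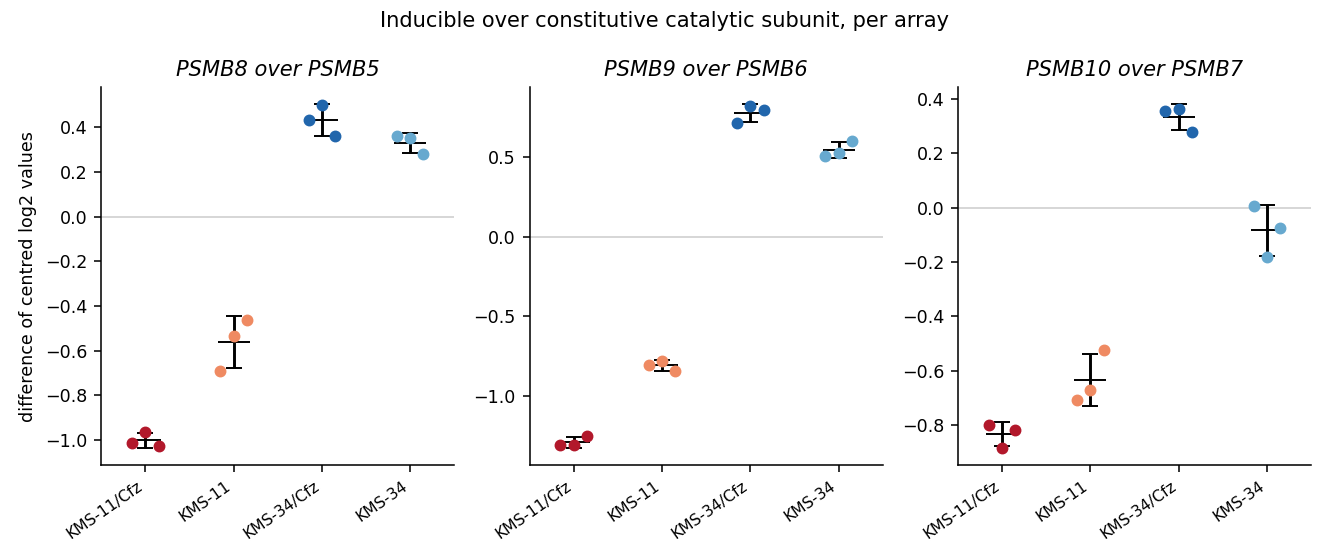
Difference of centred log2 values on each array (vertical axis, own scale in each panel) between the inducible and the constitutive subunit at the same catalytic site; points are arrays in the order of their replicate number, horizontal lines the group means and error bars the SD (n = 3). In all 3 panels the KMS-34/Cfz arrays lie above the KMS-34 arrays and the KMS-11/Cfz arrays below the KMS-11 arrays.

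Genes read by several probe sets were examined probe set by probe set. TAP2 has 4, and they opposed each other between the lines: 204769_s_at was lower in KMS-34 than in KMS-11 cells (-0.69 on the log2 scale; adjusted p = 0.0013 over all probe sets), whereas 208428_at, 204770_at and 225973_at were higher by 0.87, 0.59 and 0.58 (adjusted p at most 7.8e-05), where 34.8% of all probe sets passed. The same probe set was lower in KMS-34/Cfz than in KMS-11/Cfz cells (-0.51; adjusted p = 0.011). The averaged TAP2 value thus understates 3 of its 4 probe sets. Between resistant and parental cells none of the 4 passed in either line, where 7.05% of all probe sets passed in KMS-34/Cfz and 1.75% in KMS-11/Cfz.

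Of the 3 probe sets of TAPBP, 210294_at differed between KMS-34 and KMS-11 cells by 0.75 (adjusted p = 0.00039), 1555565_s_at by 0.26 (adjusted p = 0.13) and 208829_at by -0.02 (adjusted p = 0.91). The arrays of 210294_at measured 0.35, 0.85 and 0.28 in KMS-34 cells, against -0.25, -0.33 and -0.20 in KMS-11 cells, so that replicate 2 of KMS-34 stood above the others. The 3 probe sets of B2M differed by -0.13, -0.07 and 0.05, none past the threshold. In the first and second of them replicate 1 of KMS-34/Cfz was the highest array of its group (0.16 and 0.11), and it was the lowest in the third, 232311_at (-0.19).

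**Figure D5:**
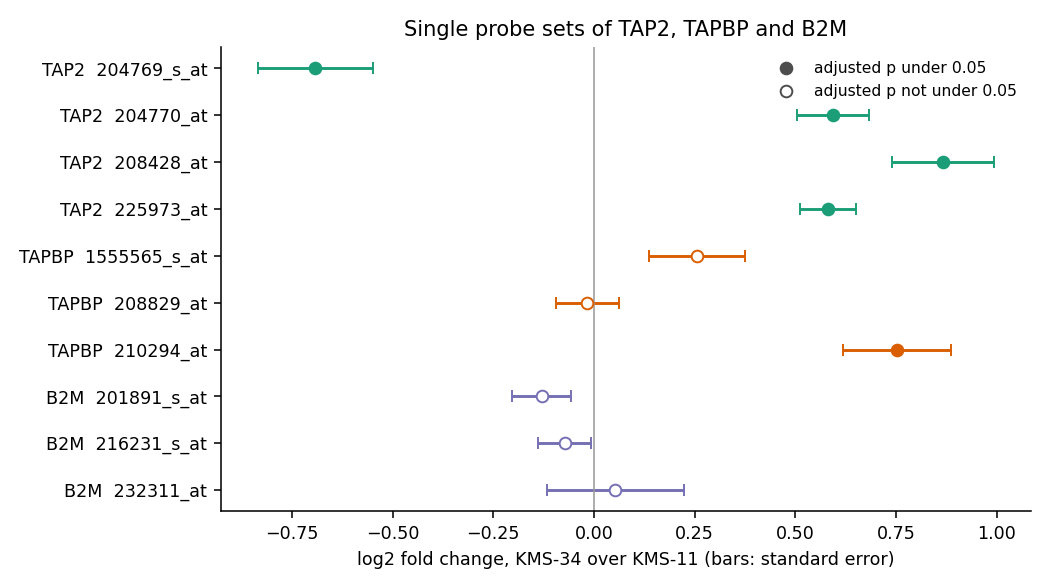
Log2 fold change of KMS-34 over KMS-11 cells (horizontal axis) for each probe set of TAP2 (green), TAPBP (orange) and B2M (violet); bars are standard errors from limma and filled points passed the test over all probe sets. One TAP2 probe set, 204769_s_at, lies at -0.69 while the other 3 lie between 0.58 and 0.87.

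Other genes of the route, taken from lists chosen with earlier results of these data known, were counted in the same fit. Of all genes 10.1% passed in KMS-34/Cfz and 3.57% in KMS-11/Cfz. With shares this low, a count of 0 in a short list says little. Of 5 class I heavy chain genes measured (HLA-B, HLA-C, HLA-E, HLA-F and HLA-G), 0 passed in KMS-34/Cfz (median change 0.15) and 0 in KMS-11/Cfz (median 0.004). Their probe sets can cross-react among these related genes. Between KMS-34 and KMS-11 cells HLA-E was higher by 0.64, and HLA-C and HLA-B were lower (-0.31 and -0.20). Of all genes 21.6% were higher there and 20.5% lower. Of 8 genes of class I folding and peptide trimming, PDIA3, a disulfide isomerase of the loading complex, fell in KMS-11/Cfz (-0.46; adjusted p = 0.011), and none of the 8 passed in KMS-34/Cfz. Of 7 cytosolic peptidases, LAP3 rose in KMS-34/Cfz (0.26; adjusted p = 0.032) and none passed in KMS-11/Cfz. PSME4, which encodes the activator PA200, rose in KMS-34/Cfz (0.40; adjusted p = 0.0074).

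Regulators of the group were examined in the same way, beside the same shares of all genes (10.1% in KMS-34/Cfz and 3.57% in KMS-11/Cfz). Of 8 genes for the partners of NLRC5 and the class II transactivator, RFXAP, a subunit of the RFX complex, rose in KMS-34/Cfz (0.57; adjusted p = 0.0065), and its change differed from that in KMS-11/Cfz (0.68; adjusted p = 0.027). Of 11 genes between the interferon-γ receptor and its factors, IRF8 (0.51; adjusted p = 0.00056) and the receptor chain IFNGR1 (0.36; adjusted p = 0.0061) rose in KMS-34/Cfz and IRF4, a plasma cell factor, fell (-0.32; adjusted p = 0.014). None of the 11 passed in KMS-11/Cfz, and the changes of IRF8 and IFNGR1 differed between the lines (0.49 and 0.37; adjusted p = 0.012 and 0.049). In that contrast 3.70% of all genes were higher. IRF1, which activates several of the genes described here and was singled out after its values had been seen, was higher in KMS-34 than in KMS-11 cells by 0.68 (adjusted p = 1.2e-05) and had a change of 0.27 in KMS-34/Cfz that did not pass (adjusted p = 0.058). Between these parental lines 4 of the 11 were higher (JAK2, IRF1, IRF4 and IRF9). The lower ones were 6: IFNGR1, IFNGR2, JAK1, IRF2, IRF8 and SOCS3. The median of the 11 was -0.28, against 0.02 over all genes, of which 21.6% were higher and 20.5% lower.

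Of 6 genes for NF-κB factors, REL rose in KMS-34/Cfz (0.43; adjusted p = 0.00080), and NFKB1 (-0.38; adjusted p = 0.0041) and RELB (-0.29; adjusted p = 0.027) fell. None of the 6 passed in KMS-11/Cfz, where 3.57% of all genes did, against 10.1% in KMS-34/Cfz. Between KMS-34 and KMS-11 cells 5 of the 6 were lower, RELB by far the most (-1.73), and RELA was higher (0.52), where 20.5% of all genes were lower and 21.6% higher.

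Their positions allow a comparison with neighbouring genes. TAP2, PSMB8, TAP1 and PSMB9 lie side by side among class II genes. The 20 measured genes around PSMB8, the other 3 among them, had a median difference of 0.07 between KMS-34 and KMS-11 cells (range -2.57 to 1.12), against 0.93 for PSMB8, and 1 of the 20 exceeded it. For PSMB9, at 1.12, 0 of its 20 neighbours did. Around NLRC5 the median was 0.07, against 0.62 for NLRC5 itself, with 2 of 20 above it. Around PSMB10 it was 0.06, against 0.32, also with 2 of 20 above it. The other genes stood out less from their neighbours. Of 20 neighbours each, 3 exceeded PSME1, 3 TAPBP, 4 TAP2, 6 TAP1 and 11 B2M. With 5 neighbours on each side the median around TAP1 was 0.25, above the 0.23 of TAP1 itself. In KMS-34/Cfz cells the neighbours of PSMB10 had a median change of 0.18, 6 of them rose, 1 fell and 2 exceeded the 0.39 of PSMB10. Those of PSMB8 had a median change of -0.02, 3 rose, 0 fell and 3 exceeded its 0.27. Of all genes 5.40% rose in KMS-34/Cfz and 10.1% passed in either direction, with a median change of -0.01.

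The patterns of the genes over the 12 arrays followed the line. Without B2M, the 28 pairs among the other 8 genes correlated at r = 0.76 to 0.99, highest for PSMB8 with PSMB9, and the 8 pairs with B2M at r = 0.30 to 0.55. The arrays share the line difference, so the same was done after subtracting each line's mean. The 28 pairs then ranged from -0.30 (PSMB10 with PSME1) to 0.87 (PSMB8 with PSMB9), and the pairs with B2M from 0.47 to 0.89. Without replicate 1 of both KMS-34/Cfz and KMS-34 these ranges were -0.37 to 0.85 and 0.31 to 0.86. Among all genes the pattern most like PSMB8 over 12 arrays was that of SESN2 (r = 0.998), most like PSMB9 that of SLC3A2 (r = 0.999) and most like NLRC5 that of DGKZ (r = 0.993). None of these partners stayed first after the line means were subtracted. Then LAT was most like PSMB8 (r = 0.98), LRRC37A4P most like PSMB9 (r = 0.98) and PPM1D most like NLRC5 (r = 0.96). COG4 was most like PSMB10 both before (r = 0.991) and after the line means were subtracted (r = 0.981), and P2RY8 was most like TAP1 both times (r = 0.987 and 0.956). The mean of the 9 genes was most like CXXC5 (r = 0.996), and like AAGAB after that subtraction (r = 0.978).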

How the data were processed

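RNA of KMS-11/Cfz, KMS-11, KMS-34/Cfz and KMS-34 cells was hybridised to 12 Affymetrix arrays, 3 for each group. The authors normalized the arrays with RMA, and the deposited log2 values, from -7.75 to 8.64 over 54613 probe sets, are centred for each probe set. Depth on arrays is set by signal, which centred values do not carry, so no depth is given, and the number of arrays and the spread between them limit the precision. Of the probe sets, 41091 name 1 gene (41037 matched RefSeq), 1801 name several and 11721 none, and those naming 1 gene were averaged into 19775 genes.

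All arrays entered 1 fit in limma 3.58.1 under R 4.3.3 with a mean for each group. P-values are two-sided, adjusted by Benjamini-Hochberg over all genes (or probe sets), with a threshold of 0.05. Nothing in the sources says that replicate numbers pair the arrays. Deviations of same-numbered arrays correlated at -0.35 to 0.56 across the pairs of groups. The highest values were those of KMS-34/Cfz with KMS-34, at 0.56 for replicate 1 and 0.37 for replicate 2. In both, the KMS-34/Cfz array matched the KMS-34 array of its own number best, while replicate 3 (0.05) did not. A deviation shared within that line was not tested further. The sources used here name no batch or scan date, so none was tested. The fit was tested on simulated data. Pair differences were tested by exact permutation. Neighbours are the 10 measured genes on each side in RefSeq. All measured genes of the group are named, and of each other list up to 4 past the threshold per line with the largest change. The members and lists were chosen with earlier results of these data known. A planned comparison of protein sequences was not made here. Alternatives were each line alone, a replicate block, array weights, aligned medians, cyclic loess, the probe set of largest variance, no _x_at probe sets, a threshold of 0.01, 5 neighbours on each side, each array left out, and, added after the values were seen, the joint omission of 2 arrays and the line difference of the pair shifts. Tables and figures were made with Python 3.11.15, scipy 1.17.1, pandas 2.3.3, numpy 2.4.6 and matplotlib 3.10.9.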

Additional observations from a re-analysis of the deposited data

Results flagged for a closer look

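In the contrast between the lines, PSMB8 was flagged because its change in KMS-34/Cfz exceeded that in KMS-11/Cfz by 0.40 on the log2 scale (adjusted p = 0.019, limma with Benjamini-Hochberg adjustment over all genes). Among the listed partners, the change of PSMB6 differed by -0.41, that of RFXAP by 0.68, that of IFNGR1 by 0.37, that of IRF8 by 0.49, that of NFKB1 by -0.43 and that of REL by 0.51 (adjusted p = 0.0047 to 0.049, limma). The pair shifts differed between the lines as well, by 0.54 for PSMB8/PSMB5, 0.71 for PSMB9/PSMB6 and 0.62 for PSMB10/PSMB7 (exact permutation p = 0.005 each, the smallest possible, in a test chosen after the values had been seen). That p was fixed by the separation of the groups already seen and adds nothing to it.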

How the results depend on the processing

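The 8 calls between the lines held under every alternative in both contrasts, apart from TAP1 between the parental lines, lost at a threshold of 0.01 and without single arrays. For TAP2 and TAPBP the probe set of largest variance also had the largest parental line difference, so it could not overturn their calls there. Of their other probe sets, TAP2 204769_s_at was lower in KMS-34 (-0.69). TAPBP 1555565_s_at and 208829_at did not pass (adjusted p = 0.13 and 0.91, limma over all probe sets). The count of genes past the threshold in KMS-11/Cfz, 0 of 9, became 1 with the line fitted alone, with array weights and without replicate 1 of both KMS-34/Cfz and KMS-34, and ranged from 0 to 1 without single arrays. In KMS-34/Cfz, 2 of 9 became 1 at a threshold of 0.01 and with the line fitted alone, 4 with array weights, and 1 to 3 without single arrays. For the line difference of the changes, 1 of 9 became 0 at a threshold of 0.01, 2 with cyclic loess, 5 with array weights, 4 without both replicates 1, and 0 to 4 without single arrays. For the mean over both lines, 1 became 2 with cyclic loess. The share of all genes passing under each alternative, the replicate block below among them, is not given here. These counts therefore show how calls moved and cannot be set beside a share.

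With the replicate number as a block, although the sources do not say that it pairs samples, the count was 1 in KMS-11/Cfz and 2 for the line difference. It changed no other count by as much.

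Estimates near 0 changed sign. With cyclic loess PSMB9 in KMS-11/Cfz became 0.12 and the line difference of PSME1 -0.029. With the probe set of largest variance TAPBP became 0.022 in KMS-11/Cfz, -0.23 in KMS-34/Cfz, -0.26 in the line difference and -0.11 in the mean, and B2M between the parental lines 0.052. With array weights the mean of B2M became -0.012 and NLRC5 in KMS-34/Cfz 0.013. Without single arrays the mean of TAP2 ranged from -0.026 to 0.053 and that of B2M from -0.022 to 0.026, TAPBP in KMS-11/Cfz from -0.059 to 0.036 and NLRC5 in KMS-34/Cfz from -0.088 to 0.045. The causes were not tested. The filter on dim probe sets was not run, since centred values hold no level.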
